A study of Mus musculus with 12 samples.

Results

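The histone deacetylase (HDAC) genes Hdac1, Hdac2, Hdac3, Hdac4, Hdac5, Hdac6, Hdac8, Hdac9, Hdac10 and Hdac11 were followed in TM3 cells exposed to methoxyacetic acid (MAA), the active metabolite of the solvent ethylene glycol monomethyl ether. Members were every non-control probe whose transcript identifier in the scanner files belongs to 1 of these 10 genes, which gave 13 of the 41174 probes on the array and 10 of the 15972 genes it names. The scanner files carry transcript identifiers rather than symbols, and RefSeq linked 22072 probes to a gene symbol. Hdac8, Hdac9 and Hdac10 had 2 probes each and the other genes had 1.

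TM3 is an established Leydig cell line taken from an immature Balb/c mouse testis, so every sample is 1 line in culture, grown in medium with horse and fetal bovine serum. MAA was given at 1 mM or at 5 mM, RNA was taken after 3, 8 and 24 h, and cells left in medium without MAA until the same time served as controls. Each of the 6 treatments had 2 arrays, each array set a pool of 3 MAA-treated cultures against a control pool, and the dyes were exchanged between the pair, so that replicate 1 carried MAA in green and replicate 2 in red. Controls of a given time may have served both concentrations, so values at 1 mM and 5 mM are not independent.

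HDACs remove acetyl groups from lysines of histones and other proteins. Class I enzymes (Hdac1, Hdac2, Hdac3 and Hdac8) are mostly nuclear, and Hdac1, Hdac2 and Hdac3 work inside corepressor complexes. Class IIa enzymes (Hdac4, Hdac5, Hdac9) have weak catalytic activity of their own, bind MEF2 transcription factors and move between nucleus and cytoplasm when kinases phosphorylate them. Class IIb holds Hdac6, a cytoplasmic tubulin deacetylase, and Hdac10, a polyamine deacetylase, while Hdac11 is the only class IV enzyme. MAA, a short carboxylic acid, is a reported inhibitor of deacetylase activity. The arrays measured transcripts and not enzyme activity.

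At 5 mM MAA the transcripts of Hdac1, Hdac5 and Hdac11 rose at 8 and 24 h, by 1.27- to 1.61-fold, while Hdac10 fell to 0.611 of its control level by 24 h. Hdac9, a dim transcript, fell to 0.246 of control at 24 h, with the MAA channel well above background on 1 of 2 arrays and a smaller fall (-0.65 on the log2 scale) under another background correction. Hdac5 also rose at 3 h, but its calls at 8 and 24 h were lost with arrays centred on their median. Hdac4 rose at 3 h, a call that rested on replicate 2. The member probes of Hdac2, Hdac3, Hdac6 and Hdac8 did not pass at any concentration or time in the main fit, which gave each treatment 1 coefficient. With the dye orientation as a block, Hdac3, Hdac6 and Hdac8 passed at some times of 5 mM MAA.

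The promoters of the class IIa members and of Hdac11 are shown because Hdac4, Hdac5 and Hdac11 rose and Hdac9 fell. Of the 10 genes, 7 had a promoter in the RefSeq table, with 8 windows, since Hdac9 has 2 transcription starts there. Hdac1, Hdac3 and Hdac10 had no window, so the promoters of Hdac1, which rose, and of Hdac10, which fell, could not be described. Each line gives the 250 bases upstream of the start on the gene's own strand, in GRCm38.p6 coordinates, and capitals mark the GC box GGGCGG on either strand.
Hdac4, chr1:92180342-92180591, minus strand: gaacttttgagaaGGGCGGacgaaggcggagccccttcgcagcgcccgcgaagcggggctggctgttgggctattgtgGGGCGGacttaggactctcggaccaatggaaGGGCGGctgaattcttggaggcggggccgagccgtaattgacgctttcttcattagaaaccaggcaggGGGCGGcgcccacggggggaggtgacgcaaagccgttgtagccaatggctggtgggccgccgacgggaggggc
Hdac5, chr11:102230173-102230422, minus strand: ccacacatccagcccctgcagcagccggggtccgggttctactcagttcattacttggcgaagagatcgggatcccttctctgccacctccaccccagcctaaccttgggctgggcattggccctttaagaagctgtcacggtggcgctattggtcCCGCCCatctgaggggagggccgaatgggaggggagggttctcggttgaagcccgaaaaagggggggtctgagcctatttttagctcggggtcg
Hdac11, chr6:91156565-91156814, plus strand: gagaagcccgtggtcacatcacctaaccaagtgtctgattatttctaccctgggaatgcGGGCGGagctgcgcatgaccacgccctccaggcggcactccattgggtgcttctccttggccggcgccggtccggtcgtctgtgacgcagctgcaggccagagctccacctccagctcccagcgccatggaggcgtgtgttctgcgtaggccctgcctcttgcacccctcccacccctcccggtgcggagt
Hdac9, upstream start, chr12:34917096-34917345, minus strand: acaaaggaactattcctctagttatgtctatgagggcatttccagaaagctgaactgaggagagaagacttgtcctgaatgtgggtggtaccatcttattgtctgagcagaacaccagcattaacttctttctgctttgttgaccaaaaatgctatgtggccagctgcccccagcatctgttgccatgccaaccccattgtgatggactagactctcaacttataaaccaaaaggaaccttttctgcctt
Hdac9, downstream start, chr12:34528890-34529139, minus strand: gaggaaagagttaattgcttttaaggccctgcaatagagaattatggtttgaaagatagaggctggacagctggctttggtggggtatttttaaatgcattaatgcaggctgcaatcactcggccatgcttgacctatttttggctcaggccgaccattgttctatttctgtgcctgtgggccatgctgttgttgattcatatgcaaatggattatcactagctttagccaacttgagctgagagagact
The Hdac4 window held 4 GC boxes, and those of Hdac5 and Hdac11 held 1 each. The windows of Hdac9, with a GC content of 44.4% and 43.6%, held none, against a median GC content of 52.4% over all 32851 windows. Hdac6, which did not pass the test, also held 4, Hdac2 held 1 and Hdac8 held none. A GC box was found in 32.7% of all 32851 windows of this length and in 5 of the 8 HDAC windows, the motif CCAAT in 33.8% and in 5 of the 8, and the motif GCGTGGGCG in 0.536% and in 0 of the 8, with both strands searched for each. These matches describe the letters of the windows and are not binding sites.

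Changes were read as log2(MAA/control) on each array, and a probe rose or fell where limma's adjusted p (Benjamini-Hochberg over all probes) was under 0.05. At 5 mM for 3 h, 3 of 13 HDAC probes passed, against 24.0% of all probes. At 8 h there were 5 of 13 against 30.4%, and at 24 h 6 of 13 against 30.4%. Among the 24829 probes with a signal well above background on all 12 arrays, in either channel, 37.5%, 46.3% and 44.2% passed at the respective times, and of the 11 HDAC probes in that set 3, 5 and 5 did. At 1 mM, 0, 2 and 1 HDAC probes passed at 3, 8 and 24 h, where 4.62%, 5.53% and 11.3% of all probes did. At 1 mM for 3 h, 3 HDAC probes had an unadjusted limma p under 0.05.

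Under the study's thresholds for a responding probe, an unadjusted p under 0.005 with a change over 2-fold at 5 mM, only 1 HDAC probe was called, for Hdac9 at 24 h. Of all probes, 3.76%, 5.55% and 5.62% were called at 3, 8 and 24 h. At 3 and 8 h, 6 and 7 HDAC probes had an unadjusted limma p under 0.05, all with changes under 2-fold. The median log2 ratio of the 13 probes was 0.17, 0.04 and 0.03 at 3, 8 and 24 h, beside -0.10, -0.04 and 0.03 for all probes. The 3 h value included both Hdac9 probes, which were above background in no channel then, and over the 11 bright HDAC probes the medians were -0.03, 0.16 and 0.09, beside -0.01, -0.02 and -0.06 for all bright probes.

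**Figure D1:**
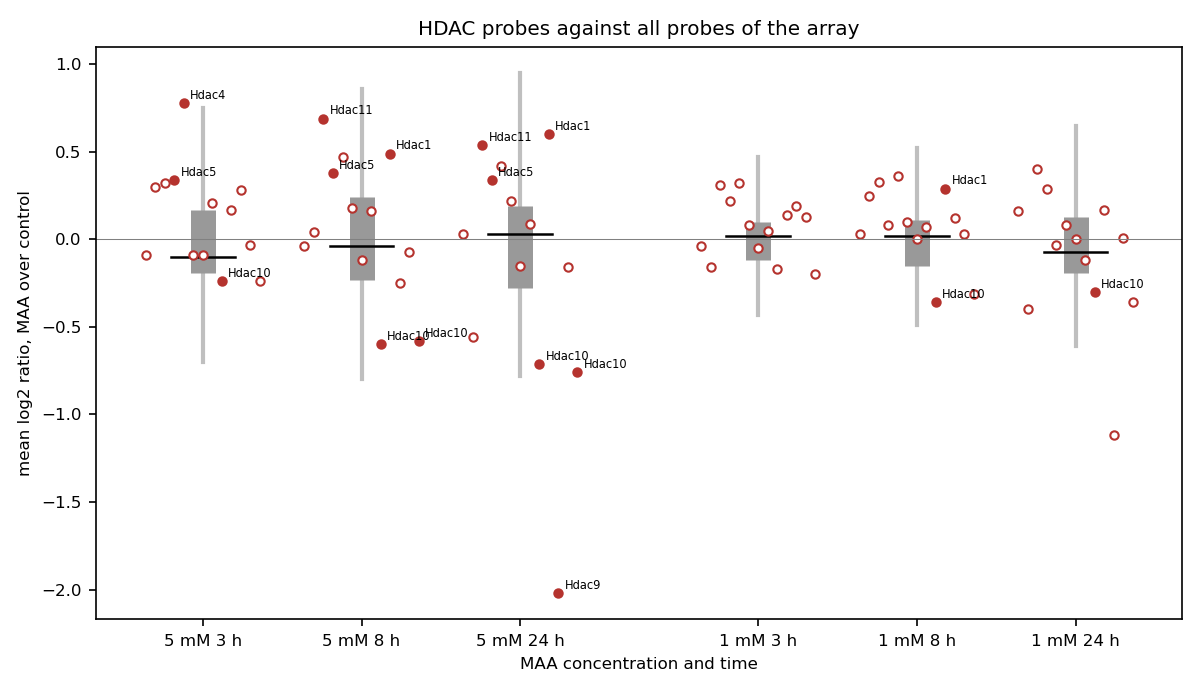
Mean log2 ratio (y axis, MAA over control, n = 2 arrays) of the 13 HDAC probes at each treatment (x axis), against all probes of the array. Thick grey bars span the 25th to 75th percentile of all probes, thin grey bars the 5th to 95th, black lines the median; red points are HDAC probes, filled and named where the adjusted p was under 0.05. Most HDAC probes lie within the thin bars, and the Hdac9 probe at -2.02 lies far below them at 5 mM for 24 h.

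Hdac1 and Hdac2 are the paired catalytic subunits of the Sin3, NuRD and CoREST corepressor complexes. The Hdac1 ratios at 5 mM were 0.24 and 0.10 at 3 h, 0.56 and 0.42 at 8 h, and 0.60 and 0.60 at 24 h for replicates 1 and 2. Both arrays of each later time lay above both arrays of 3 h. The mean rose to 0.49 (1.41-fold, SE 0.0654, adjusted p = 0.000976) at 8 h and to 0.60 (1.52-fold, adjusted p = 0.000409) at 24 h, whereas 0.17 at 3 h did not pass (adjusted p = 0.103). At 1 mM the pairs were 0.14 and 0.15 at 3 h, 0.34 and 0.24 at 8 h, and 0.21 and 0.14 at 24 h. Only the 8 h mean of 0.29 passed, narrowly (adjusted p = 0.0488), and it no longer did when any 1 of the 12 arrays was left out (adjusted p from 0.0568 to 0.393).

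The Hdac1 response was larger at 24 h than at 3 h at 5 mM, by 0.43 (SE 0.0924, adjusted p = 0.0198). It was also larger at 5 mM than at 1 mM at 24 h, by 0.43 (adjusted p = 0.0312). In the control channel, the log2 signal of Hdac1 after scaling between arrays ran from 14.18 to 14.28 at 3 h, from 14.10 to 14.18 at 8 h and from 13.99 to 14.07 at 24 h, over 4 arrays each. The 5 mM channel stood at 14.59 and 14.67 at 24 h, above every control value at any time.

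The values of Hdac2 lay near 0. Its ratios at 5 mM were -0.03 and -0.14 at 3 h, -0.03 and -0.06 at 8 h, and 0.07 and -0.02 at 24 h, and its highest mean was 0.16 at 1 mM for 24 h. The 95% interval of its mean at 5 mM for 24 h ran from -0.12 to 0.18. The difference between Hdac1 and Hdac2 was not tested. Hdac3, the catalytic subunit of the NCoR and SMRT complexes, had means of 0.21, 0.16 and 0.09 at 5 mM and of 0.05, 0.07 and -0.12 at 1 mM. Hdac8, a class I enzyme that acts on cohesin, stayed between -0.16 and 0.13 with both probes, whose means at 5 mM lay within 0.07 of each other. None of these values passed the test in the main fit.

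Hdac4 and Hdac5 are class IIa corepressors that kinases of the CaMK and PKD families export from the nucleus. Hdac4 had ratios of 0.38 and 1.18 at 5 mM for 3 h, 0.70 and 0.24 at 8 h, and 0.45 and 0.40 at 24 h. Every array lay above 0, and the 3 h pair had the widest spread of any bright member (SD 0.57). The 3 h mean of 0.78 (1.71-fold, SE 0.194) passed (adjusted p = 0.0227), but it rests on replicate 2: without that array the value was 0.38 (adjusted p = 0.305). The means of 0.47 at 8 h and 0.42 at 24 h did not pass (adjusted p = 0.115 and 0.157). At 1 mM the means were 0.32, 0.36 and -0.03, and the difference between concentrations at 24 h, 0.45 (95% interval -0.19 to 1.09), did not pass either.

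Hdac5 showed a small, flat rise at 5 mM. Its ratios were 0.29 and 0.40 at 3 h, 0.33 and 0.42 at 8 h, and 0.26 and 0.42 at 24 h. The means of 0.34, 0.38 and 0.34 (1.27-, 1.30- and 1.27-fold, SE 0.0765) all passed (adjusted p = 0.0141, 0.00743 and 0.0120). Leaving out 1 array of the pair lost the call at 3 h with either array, and at 8 and 24 h with replicate 2. The 24 h response did not exceed that of 3 h (difference 0.00, 95% interval -0.25 to 0.25). At 1 mM the means were 0.22, 0.08 and 0.29, none past the test, with adjusted p = 0.0536 at 24 h.

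Hdac9, the class IIa member that represses MEF2 targets in muscle, was the only HDAC gene near the background of the array. With probe A_52_P411780, the control channel was well above background on 0 of 4 arrays at 3 h, on 2 of 4 at 8 h and on 4 of 4 at 24 h. The control log2 signal ran from 2.00 to 3.69 at 3 h, from 2.66 to 3.95 at 8 h and from 5.35 to 6.25 at 24 h, so the 24 h controls lay above all earlier controls. At 24 h the control signal of 56.4 stood against 14.5 in the 5 mM channel on replicate 1, and 99.9 against 23.5 on replicate 2. The 5 mM cells thus had less Hdac9 signal than their own controls on both arrays, with log2 ratios of -1.96 and -2.09.

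The Hdac9 mean of -2.02 (SE 0.31, adjusted p = 0.00208) corresponded to 0.246 of control, and the MAA channel was well above background on 1 of the 2 arrays. Normexp background correction, which adds an offset to dim signals, gave -0.65 (adjusted p = 0.000945). At 1 mM for 24 h the control signals of 50.3 and 69.4 stood against 23.1 and 32.2 in the MAA channel, with ratios of -1.12 and -1.11. That mean of -1.12 did not pass (adjusted p = 0.0611), with both channels well above background on both arrays, and the difference between the concentrations at 24 h, -0.91 (95% interval -1.93 to 0.12), did not pass either. The 24 h ratio at 5 mM was lower than those at 8 h (difference -1.77, adjusted p = 0.0483) and 3 h (-2.30, adjusted p = 0.0124), but neither channel of the 5 mM arrays was above background at 3 or 8 h. The scaled log2 signal of the 5 mM channel was 3.37 on both arrays at 3 h, 2.99 and 3.00 at 8 h, and 3.39 and 4.16 at 24 h. The lower ratio at 24 h thus came with higher controls and not with a lower 5 mM signal than before. The second probe, A_51_P204031, was well above background in 1 control channel and in 0 MAA channels of the 12 arrays, and its 24 h value of -0.56 did not pass (adjusted p = 0.0913) and was 0.01 with normexp correction, so it sets no size for a change.

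Hdac7, the class IIa gene outside the member set, fell at 5 mM for 8 h with 1 of its 2 probes (-0.33, adjusted p = 0.0246), and the other gave -0.25 (adjusted p = 0.0839). Its values at 5 mM for 3 and 24 h lay between -0.04 and 0.02.

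**Figure D2:**
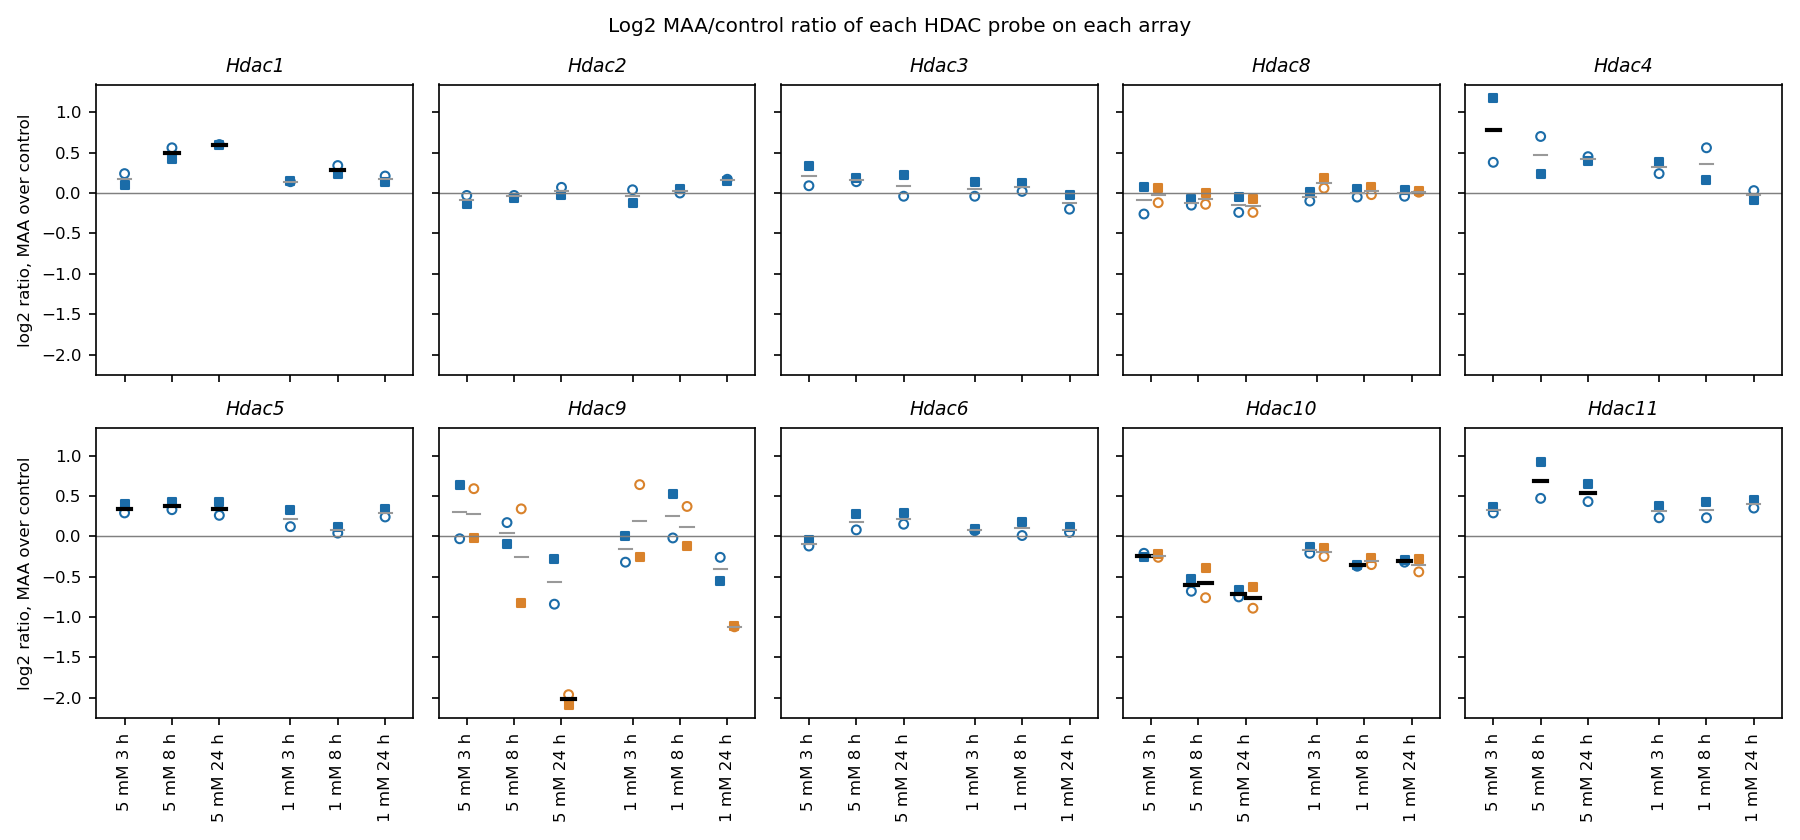
Log2 MAA/control ratio (y axis) of each HDAC probe on each array at the 6 treatments (x axis). Open circles are replicate 1, filled squares replicate 2, bars their mean, black and thick where the adjusted p was under 0.05; for Hdac8, Hdac9 and Hdac10, blue marks the A_51 probe and orange the A_52 probe. Hdac1 stepped up and Hdac10 stepped down with time at 5 mM, Hdac2 and Hdac8 stayed near 0, and Hdac9 reached -2.02.

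Hdac6 deacetylates tubulin and Hsp90 in the cytoplasm. Its ratios at 5 mM were -0.12 and -0.05 at 3 h, 0.08 and 0.28 at 8 h, and 0.15 and 0.29 at 24 h. The 24 h mean of 0.22 did not pass (adjusted p = 0.0616), and it passed under some other settings, such as normexp correction (0.26, adjusted p = 0.00826).

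Hdac10 fell at both concentrations. With probe A_51_P502764, the ratios at 5 mM were -0.21 and -0.26 at 3 h, -0.68 and -0.53 at 8 h, and -0.75 and -0.67 at 24 h. The means of -0.24 (adjusted p = 0.0249), -0.60 (adjusted p = 0.000243) and -0.71 (SE 0.0601, adjusted p = 0.000139) all passed, and the transcript fell by 34.2% at 8 h and fell by 38.9% at 24 h. At 1 mM the pairs were -0.21 and -0.13 at 3 h, -0.37 and -0.36 at 8 h, and -0.32 and -0.29 at 24 h, of which the 8 h and 24 h means of -0.36 and -0.30 passed (adjusted p = 0.0174 and 0.0191). Every one of the 12 arrays showed a lower Hdac10 signal with MAA than without. The calls at 5 mM for 3 h and at 1 mM were lost when either array of the pair was left out, while those at 5 mM for 8 and 24 h were kept.

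The second Hdac10 probe, A_52_P577361, gave nearly the same values. Its means were -0.24, -0.58 and -0.76 at 5 mM, with adjusted p = 0.152, 0.00385 and 0.00111, and -0.20, -0.31 and -0.36 at 1 mM, none past the test. Without replicate 1 its 8 h value at 5 mM was -0.39 (adjusted p = 0.0635). Its ratios tracked those of the first probe over the 12 arrays (Pearson r = 0.939), which share their RNA and hybridization, and their means at 5 mM lay within 0.05. The 24 h response exceeded the 3 h response by -0.48 (adjusted p = 0.00979) with the first probe and by -0.52 (adjusted p = 0.0488) with the second. Between concentrations at 24 h the first probe differed by -0.41 (adjusted p = 0.0284), whereas the second differed by -0.40 (adjusted p = 0.153).

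The level of Hdac10 in control cells moved the other way with the first probe. The control log2 signal of the first probe ran from 11.16 to 11.23 at 3 h, from 11.32 to 11.43 at 8 h and from 11.51 to 11.58 at 24 h. The ranges of the 3 times did not overlap, and the 5 mM channel was at 10.97 and 11.00, 10.73 and 10.78, and 10.76 and 10.84 at the respective times. With this probe, the larger ratio at 24 h than at 3 h on this scale therefore contained a higher control level as well as a lower level under MAA. Controls of the second probe ran from 8.76 to 8.90 at 3 h, 8.69 to 8.90 at 8 h and 8.83 to 9.05 at 24 h. These ranges overlapped.

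Hdac11, which removes long-chain fatty acyl groups as well as acetyl groups, rose at 8 and 24 h. Its ratios at 5 mM were 0.29 and 0.36 at 3 h, 0.47 and 0.92 at 8 h, and 0.43 and 0.65 at 24 h. The 8 h mean of 0.69 (1.61-fold, SE 0.116, adjusted p = 0.00297) and the 24 h mean of 0.54 (1.45-fold, adjusted p = 0.00983) passed, and the 3 h mean of 0.32 did not (adjusted p = 0.0886). Without replicate 2 the 24 h value was 0.43 (adjusted p = 0.137), while the 8 h call was kept without either array.

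At 1 mM the Hdac11 means were 0.31, 0.33 and 0.40 at 3, 8 and 24 h, and none passed (adjusted p = 0.229, 0.172 and 0.0694). The difference between concentrations was 0.02 at 3 h (95% interval -0.36 to 0.40), 0.36 at 8 h (-0.02 to 0.75) and 0.14 at 24 h (-0.24 to 0.52), and none passed the test. The control log2 signal was 6.40 to 6.65 at 3 h, 6.24 to 6.67 at 8 h and 7.17 to 7.51 at 24 h. Control and MAA levels both ended higher at 24 h, with 7.89 and 7.94 in the 5 mM channel.

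**Figure D3:**
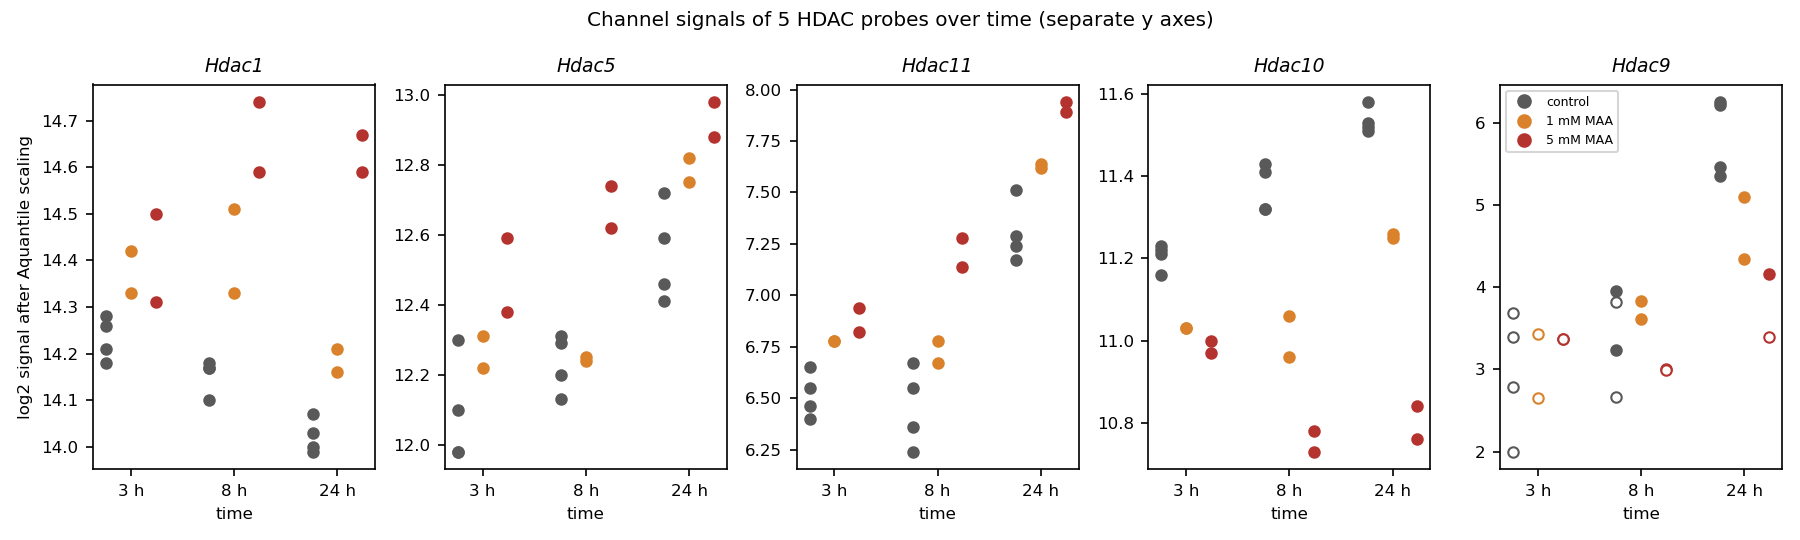
Log2 signal after Aquantile scaling between arrays (y axis, a separate range for each panel) of 5 HDAC probes at 3, 8 and 24 h (x axis). Each point is 1 channel of 1 array: grey, control (4 at each time); orange, 1 mM MAA; red, 5 mM MAA (2 each); open points were not well above background. Hdac10 controls, with probe A_51_P502764, rose from 11.16 to 11.58 while the 5 mM channel ended at 10.76 and 10.84. The Hdac9 controls reached 5.35 to 6.25 at 24 h.

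Across the whole set, differences between concentrations passed for 0 of 13 probes at 3 h, 0 at 8 h and 2 at 24 h, those of Hdac1 and Hdac10, where 3.40%, 10.1% and 8.41% of all probes passed. At 3 and 8 h, 0 and 2 HDAC probes had an unadjusted limma p under 0.05. Both 24 h calls were lost without any 1 of the 24 h arrays or of the 1 mM 8 h arrays, and 1 remained without either 1 mM 3 h array. Between times at 5 mM, 0 probes passed for 8 h against 3 h (5.10% of all probes, with 4 HDAC probes at an unadjusted p under 0.05), 1 for 24 h against 8 h (8.91%) and 4 for 24 h against 3 h (15.8%). The call of Hdac9 between 24 and 8 h was kept only when the array left out was a 1 mM 3 h array or the 5 mM 8 h replicate 2. Of the 4 calls between 24 and 3 h, 0 were left without the 5 mM 24 h replicate 1, 1 without its replicate 2 and 2 without either 5 mM 3 h array.

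The median of all probes at 5 mM for 3 h lay below 0, and centring each array on its median moved values there by 0.11. Relative to the median of all probes, the 3 h value of Hdac10 was -0.13 and that of Hdac1 was 0.28. With centred arrays at 5 mM, Hdac10 no longer passed at 3 h (adjusted p = 0.519), nor did Hdac5 at 8 h (0.35, adjusted p = 0.0878) and 24 h (0.33, adjusted p = 0.104). The calls at 1 mM were lost too. Hdac10 with probe A_51_P502764 gave -0.34 at 8 h (adjusted p = 0.161) and -0.28 at 24 h (adjusted p = 0.173), and Hdac1 gave 0.31 at 8 h (adjusted p = 0.251). Centring moved the other treatments by 0.03 or less.

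Genes around the HDACs were described by the same rule. Of 34 subunits of class I complexes 30 were measured, and 3 rose and 4 fell at 3 h, 3 rose and 4 fell at 8 h, and 5 rose and 2 fell at 24 h of 5 mM MAA. Their medians were 0.00, 0.07 and 0.04. Of 20 regulators and partners of class IIa enzymes, among them CaMK, PKD and 14-3-3 genes, 18 were measured, and 3, 4 and 6 rose while 2 fell at each time. For comparison, 11.8%, 15.4% and 14.6% of all probes rose and 12.3%, 15.0% and 15.8% fell. Each listed gene was read by its brightest probe, and of bright probes 37.5%, 46.3% and 44.2% passed in either direction.

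Lysine acetyltransferases, the enzymes that add the acetyl group, fell more often than they rose at 5 mM. Of 13 measured of 14, 7 fell at 3 h, 6 at 8 h and 5 at 24 h, while 1, 2 and 1 rose. Of all probes, 12.3%, 15.0% and 15.8% fell. The list is read by the brightest probe of each gene, and 37.5%, 46.3% and 44.2% of bright probes passed in either direction. The medians of the list were -0.37, -0.22 and -0.14. At 1 mM, 2, 0 and 0 fell and 1, 1 and 0 rose at the respective times, where 4.62%, 5.53% and 11.3% of all probes passed in either direction. Crebbp, a coactivator acetyltransferase of many signalling pathways and named here after its values were seen, had ratios of -0.89 and -0.83 at 3 h (mean -0.86, adjusted p = 0.00275). Kat2b, a histone H3 acetyltransferase also chosen after its values were seen, fell at all 3 times, by 0.66, 0.65 and 0.46 on the log2 scale. These are values of the brighter of its 2 probes. Of 7 measured readers of acetyl-lysine among 10 listed, 2, 2 and 1 rose and 3, 1 and 4 fell.

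Of 8 other deacetylases, Hdac7 and the sirtuins, 7 were measured, and Sirt1 was the only one past the study's thresholds. Sirt1, an NAD-dependent deacetylase of histones and p53, is described by the brighter of its 2 probes. It had ratios of -1.12 and -1.05 at 3 h and of -1.17 and -1.25 at 24 h. Its means of -1.09 (adjusted p = 3.72e-05) and -1.21 (adjusted p = 2e-05) were larger falls than that of any HDAC probe well above background on all arrays. At 8 h the value was -0.53 (adjusted p = 0.000475).

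Cdkn1a, H1f0, Gsn and Txnip are known to rise when deacetylases are inhibited in many cell types. This list was chosen with earlier results of these data known. All 4 rose at each time of 5 mM MAA, where 11.8%, 15.4% and 14.6% of all probes rose at 3, 8 and 24 h. Of bright probes, 37.5%, 46.3% and 44.2% passed in either direction at these times. H1f0, a linker histone of non-dividing cells, had ratios of 1.19 and 1.06 at 3 h, 1.57 and 1.56 at 8 h, and 0.68 and 0.82 at 24 h. These come from the brightest of its 3 probes. Cdkn1a, the cell cycle inhibitor p21, had means of 0.49, 0.90 and 0.80. Txnip, an inhibitor of thioredoxin, had means of 0.72, 1.07 and 0.85, and Gsn, an actin-severing protein, 0.49, 0.66 and 0.90. For Txnip this was the brighter of 2 probes. At 1 mM, 2 of the 4 rose at each time, where 4.62%, 5.53% and 11.3% of all probes passed in either direction. Whether deacetylase inhibition lay behind these values was not tested.

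**Figure D4:**
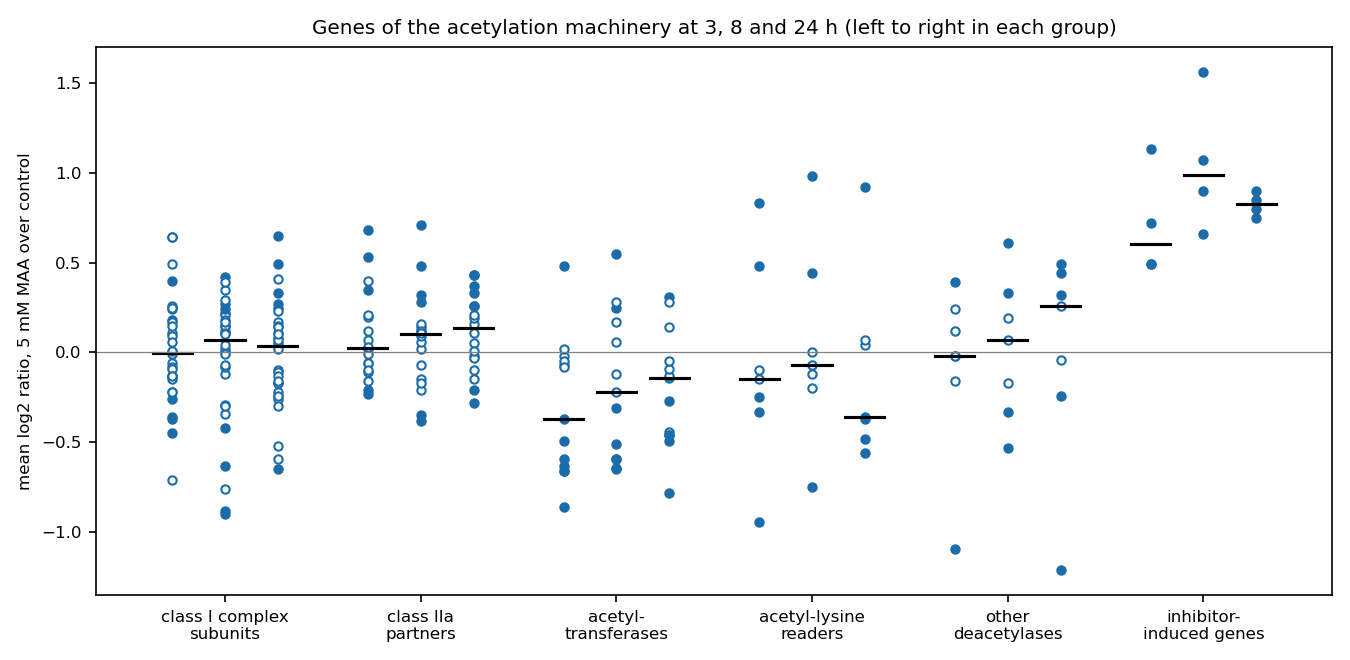
Mean log2 ratio at 5 mM MAA (y axis, MAA over control, n = 2 arrays) of genes in 6 lists (x axis), with 3, 8 and 24 h from left to right in each list. Each point is 1 gene, filled where the adjusted p was under 0.05, and black bars are medians of the list. Acetyltransferases have medians of -0.37, -0.22 and -0.14, and the 4 inhibitor-induced genes lie above 0 at each time.

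Over the 12 arrays, the genes whose ratios were most like those of Hdac4 were Klhl9 (Pearson r = 0.949), Creb5 (0.941) and Polh (0.938), among 15071 named probes. These points share arrays, dyes and control pools. Hdac4 was taken as the bright HDAC probe with the largest mean change at 5 mM, 0.78 at 3 h beside -0.76 for an Hdac10 probe at 24 h, and without replicate 2 its value of 0.38 would not have been the largest.

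Depth on an array is set by signal over background: between 64.4% and 71.4% of probes had at least 1 channel well above background, and the pair of a treatment correlated at 0.730 to 0.862 at 5 mM and at 0.299 to 0.739 at 1 mM over bright probes. Of the Leydig markers, Star, Cyp17a1 and Insl3 were well above background in all 12 control channels, and Cyp11a1, Hsd3b1 and Lhcgr in none. Markers of other testis cells were also present in this line in all 12 control channels, 3 of 6 for Sertoli cells, 3 of 6 for germ cells, 1 of 3 for macrophages and 1 of 6 for peritubular and endothelial cells, whereas Adgre1 and Cdh5 were in none. At 5 mM for 24 h, the summed signal of the Leydig list was 988 to 1140 in controls and 648 to 673 with MAA, that of the Sertoli list 12500 to 13600 and 11800 to 12000, that of the germ cell list 897 to 1020 and 586 to 628, that of the macrophage list 1340 to 1350 and 1010 to 1130, and that of the peritubular and endothelial list 23400 to 27400 and 33100 to 37900. The Sertoli list shifted more at earlier times of 5 mM, with 7500 to 7800 in controls and 5660 to 6470 with MAA at 3 h. At 8 h these sums were 11400 to 11800 and 6590 to 7500. At 1 mM for 24 h the Sertoli sum was higher with MAA, 11300 to 11600 against 10600 to 10700. Markers past the study's thresholds at 5 mM were Insl3 at 24 h (-1.11), Sox9 at 3 h (1.37) and Des at 24 h (1.30), and Dhh, Cyp11a1, Adgre1 and Cdh5, which were higher with MAA and whose control channels were mostly or always not well above background. The part of these shifts in the HDAC values was not tested, and fewer cells expressing a gene cannot be told apart from less RNA per cell.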

How the data were processed

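RNA of MAA-treated and control TM3 cells was hybridized to 12 two-colour Agilent mouse arrays. Per the file headers, Agilent's software Feature Extraction, version 9.5.3.1, removed background and balanced the dyes of an array (linear and LOWESS), and the deposited intensity values are these processed signals. The authors also deposited a table of log10 ratios to 2 decimals.

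Control spots (1639 of 45018) and outlier spots (124 to 208 an array, 0 of them HDAC spots) were left out, spots of a probe were averaged, and log2(MAA/control) was computed for 41174 probes without centring. Symbols came from RefSeq (GRCm38.p6) by unversioned transcript identifier, and 53.6% of probes received 1. With R 4.3.3 and limma 3.58.1, all 12 arrays were fitted with 1 coefficient per treatment (6 residual and 1.515 prior degrees of freedom), which pools the spread over treatments, and p-values were adjusted by Benjamini-Hochberg over all probes. A call in the study's sense used limma in place of the Rosetta error model, with p below 0.005 before adjustment and over 2-fold change (1.5-fold at 1 mM). Channel signals were scaled between arrays by Aquantile. Each array's ratio was measured within 1 of 3 slides. Arrays are pools of 3 cultures, and the 2 arrays of a treatment also differ in dye orientation. The p-values therefore measure the spread between pools together with that of the dye orientation.

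Every HDAC probe is named, and where 1 probe stands for a gene of another list it is the brightest. Apart from Hdac7, the other probes of those genes are not given. Called genes of those lists and the 4 inhibitor-responsive genes are named. The members and lists were chosen with earlier results of these data known. Alternatives were normexp correction (offset 50) and loess, the deposited ratios, centring, leaving out dim probes, keeping outlier spots, the replicate number or slide as a block, 1 concentration alone, the mean over a gene's probes, and leaving out each array. The fit was tested on simulated data for 5 mM at 24 h over 41174 probes. It recovered 37% of 100 planted changes of 0.5 and 77% of 100 of 1 on the log2 scale, with 6 unchanged probes past the test. In the data 30.4% of all probes passed at that treatment, so the adjustment was less strict there than in the simulation. Changes as small as those of the HDAC genes may be missed, but these shares do not say how often. Promoters were searched and figures drawn with Python 3.11.15, pandas and matplotlib 3.10.9. The authors' own comparison columns were not used.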

Additional observations from a re-analysis of the deposited data

Results flagged for a closer look

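The response of 3 HDAC genes differed between times or concentrations by a limma contrast (adjusted p under 0.05). Hdac1 rose more at 5 mM than at 1 mM at 24 h, by 0.43 on the log2 scale (0.60 against 0.17, adjusted p = 0.0312), and at 5 mM it rose more at 24 h than at 3 h, by 0.43 (0.60 against 0.17, adjusted p = 0.0198). Hdac10 was lower at 5 mM than at 1 mM at 24 h with probe A_51_P502764, with a difference of -0.41 (-0.71 against -0.30, adjusted p = 0.0284). Its ratio at 5 mM was lower at 24 h than at 3 h by both probes, with differences of -0.48 (adjusted p = 0.00979) and -0.52 (adjusted p = 0.0488).

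Hdac9 with probe A_52_P411780 had a lower ratio at 24 h than at 8 h at 5 mM, with a difference of -1.77 (adjusted p = 0.0483), and a lower one than at 3 h, with a difference of -2.30 (adjusted p = 0.0124). At 3 and 8 h neither channel of the 5 mM arrays was well above background. The control signal was higher at 24 h than before, while the 5 mM signal was not lower. Without the 5 mM 24 h replicate 1, 0 of these differences passed the test.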

How the results depend on the processing

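Of the 17 HDAC values that passed the test, 121 of 136 values under other processing still passed, 15 did not, and 0 changed direction. These include the setting that kept outlier spots, which could hardly move them, since 0 HDAC spots were outliers. With 1 array left out, 0 values changed direction. Most of those fits dropped an array of another treatment, which leaves the value itself unchanged. Calls lost without an array of the value's own pair are given with each gene above. Normexp correction gave 1 HDAC probe past the test at 1 mM for 8 h, 2 at 1 mM for 24 h, 0 called at 5 mM, 2 for 5 mM against 1 mM at 8 h and 1 for 8 h against 3 h. The deposited ratios gave 2 at 1 mM for 24 h, 1 for 5 mM against 1 mM at 8 h and 2 for 8 h against 3 h. Centred arrays gave 0 at 1 mM for 8 h and for 24 h, 0 for 5 mM against 1 mM at 24 h, 0 for 24 h against 8 h and 2 for 24 h against 3 h. Without dim probes there were 5 at 1 mM for 24 h and 2 for 8 h against 3 h. In that fit 47.4% of the probes kept passed at 5 mM for 24 h, against 30.4% of all probes in the main fit. With the slide as a block there were 5, 6 and 8 at 5 mM for 3, 8 and 24 h, where 29.3%, 35.9% and 34.5% of all probes passed, 1 at 1 mM for 3 h, 4 at 1 mM for 24 h and 1 for 5 mM against 1 mM at 8 h. With 1 concentration alone there were 0 at 5 mM for 3 h, at 1 mM for 8 h and 24 h, and between 24 h and either earlier time, in a fit of fewer arrays in which 15.4% of all probes passed at 5 mM for 3 h. With the mean over a gene's probes there were 0 at 1 mM for 8 h, 2 at 1 mM for 24 h and 1 for 5 mM against 1 mM at 24 h. Keeping outlier spots moved none of these counts by over 1.5 times. Apart from the fit of fewer arrays, the cause was not tested. Shares of all probes under these settings were taken only at 5 mM. The counts at 1 mM and between treatments therefore have no share beside them and are not read as results about the HDAC genes.

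With the replicate number, which is also the dye orientation, as a block, 7, 7 and 8 of 13 HDAC probes passed at 5 mM for 3, 8 and 24 h, where 32.2%, 39.0% and 38.5% of all probes did, 2, 4 and 6 at 1 mM for 3, 8 and 24 h, 3 for 5 mM against 1 mM at 8 h and 3 for 8 h against 3 h. Hdac11 then passed at 1 mM at each time (adjusted p = 0.043, 0.03 and 0.0112). At 5 mM, Hdac3 passed at 3 h (0.21, adjusted p = 0.0201) and 8 h (0.16, adjusted p = 0.0458). Hdac6 passed at 5 mM for 8 h (0.18, adjusted p = 0.021) and 24 h (0.22, adjusted p = 0.00926). Hdac8 passed at 5 mM for 24 h with probe A_52_P464062 (-0.16, adjusted p = 0.0292). No share of all probes was taken at 1 mM or between treatments with this block. No label says that a number pairs the samples, and deviations of same-numbered arrays correlated over 0.1 in 14 of 15 pairs of treatments (lowest 0.0399, median 0.52).

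Leaving out 1 array gave 0 to 4 HDAC probes at 5 mM for 3 h, 4 to 6 at 8 h and 4 to 6 at 24 h, 0 to 0 at 1 mM for 3 h, 0 to 1 at 8 h and 0 to 4 at 24 h, and 1 to 2 called at 5 mM. It gave 0 to 2 for 5 mM against 1 mM at 24 h, 0 to 1 for 24 h against 8 h and 0 to 4 for 24 h against 3 h, with the lone array of the treatment assumed to vary like the others. The pair count of 2 arrays limits every value, and signal near background limits Hdac9.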

Other observations

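A further probe, A_52_P46504, which the study's annotation assigns to Hdac2 and which carries no RefSeq transcript identifier here, was set beside the Hdac2 probe because it stood in a list of responding probes, so its values are a description. Its ratios at 5 mM were -0.82 and -0.19 at 3 h, -1.22 and -1.05 at 8 h, and -0.55 and -0.50 at 24 h. Its 8 h mean of -1.14 passed the test (adjusted p = 0.0235), with the MAA channel well above background on 1 of 2 arrays at that time. The Hdac2 probe of the member set had means of -0.09, -0.04 and 0.03 at the same times, none past the test.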
